A study of Mus musculus with 12 samples.

Results

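Glycolysis and hypoxia response genes were followed in the somatic support cells of embryonic mouse gonads, which become Sertoli cells in a testis and pregranulosa cells in an ovary. The set was a list of 40 genes. A gene entered through the probe sets (groups of short oligonucleotides on the array) that name it alone, and 36 of the 40 were measured, by 77 of the 44238 probe sets tested, out of 17996 genes measured in all. Of the 36, 14 encode glycolytic enzymes, 7 encode transporters or regulators of glycolysis, 4 encode subunits or prolyl hydroxylases of the hypoxia-inducible factor (HIF), and 11 encode other targets of hypoxia. Gpi1, Eno1, Gapdh and Bnip3l were not measured: no probe set named the first pair here, those of Gapdh carried no values, and the 3 probe sets of Bnip3l also named its pseudogene.

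The study isolated these cells by flow cytometry, 3 pools for each sex and day, and read the total RNA of each pool on 1 Affymetrix mouse expression array. The 4 groups were XY cells at embryonic day (E) 12.5, XX cells at E12.5, XY cells at E11.5 and XX cells at E11.5. All 12 pools, XX and XY alike, came from FVB.Cg-Tg(Tyr)3412ARpw mice that carry the transgene Tg(Sry-EGFP)92EI, a green fluorescent reporter under Sry control, and the labels call the source testis for XY and ovary for XX pools. The labels give neither the sorting gate, nor the number of embryos in a pool, nor whether separate litters gave the pools, so the p-values measure only how pools differ, which may be technical.

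Glycolysis breaks glucose down to pyruvate, which is passed to mitochondria or reduced to lactate. HIF, a dimer whose alpha subunit is marked for destruction by prolyl hydroxylases while oxygen is present, binds a short core motif and switches on glycolytic genes together with genes for vessel growth, collagen maturation, pH control and mitochondrial turnover. Many glycolytic genes are also expressed at a high level in cells that have normal oxygen, whereas several of the other targets are widely used as hypoxia markers.

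The values were log2 signals, and their precision is limited by having 3 arrays in a group. The support cell markers Gata4, Wt1 and Nr5a1 read 8.60 or more on all 12 arrays. They belong to a list of 8 measured support cell markers that did not all behave alike. Six4 read 5.27 to 6.91 on the 12 arrays. Between the sexes at E12.5, 3 of the 8 passed the limma test given below, where 11.1% of all genes did. Lhx9 (8.55 in XY and 12.68 in XX pools) and Emx2 (8.59 and 11.75) were lower in XY cells, and Zfpm2 (11.31 and 10.07) was higher. Sox9 averaged 10.16 in XY and 6.18 in XX pools at E12.5, and Foxl2 averaged 7.79 in XY and 11.09 in XX pools, so the labelled sexes differed in their lineage markers. Probe sets of Y-linked genes on the XX arrays, which have no target there, read 3.51 to 5.17. Pool 2 of XX cells at E11.5 stood apart. Its 15 endothelial markers averaged 8.62, against 6.30 to 7.09 on the other 11 arrays, and its 9 interstitial mesenchyme markers averaged 10.18, against 7.52 to 8.77. It was also the highest of the 12 arrays for the 18 cell cycle markers (10.62) and the 15 macrophage and leukocyte markers (7.81). Among the endothelial markers, Pecam1 read 4.69 to 5.39 and Cdh5 5.53 to 8.81 on the 12 arrays. Pool 1 of XX cells at E12.5 was the lowest of the 12 arrays for the cell cycle markers (7.71, against 9.04 and 8.83 in pools 2 and 3). It was also the lowest for the mean deviation of the 36 genes from their 12-array means (-0.32) and for that of the 14 enzymes (-0.29).

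The brightest probe set of a gene, used below unless another is named, was brighter than the median of all probe sets for 34 of the 36 genes. Of the 36, 13 passed the test in at least 1 comparison, where 15.1% of all genes did, and 23 in none. A gene was called when its limma p-value, adjusted by the Benjamini-Hochberg method over all 44238 probe sets, was under 0.05. Values below are the log2 signals of the 3 pools, and differences are log2 units ± the standard error of the fit.

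The comparison of XY with XX cells at E12.5, the day after the sexes begin to separate, held most of the calls. In XY cells 8 of the 36 genes were higher and 4 were lower, 33.3% of the list, where 11.1% of all genes measured were called. The list was chosen with earlier results of these data known, so the shares are a description and no enrichment was tested. Among genes whose brightest probe set lay above the median of all probe sets, the share called was 15.2%. By direction, 5.59% of all genes were called higher and 5.52% lower. The higher genes were the glycolytic enzymes Hk2, Pfkp, Pgam1 and Ldhb, the HIF prolyl hydroxylase Egln1, and the hypoxia targets P4ha1, Ddit4 and Bhlhe40. The lower genes were Adm, Ndrg1, Aldoc and Pfkfb4. The count depended on the single arrays of E12.5: it was 5, 6 and 4 without pool 1, 2 or 3 of XY cells and 6, 6 and 5 without pool 1, 2 or 3 of XX cells. Without pool 2 of XX cells at E11.5, the array that stood apart, 10 were called and Egln1 and Pfkp were not. The list had no common direction, with a median difference of 0.06 against 0.00 for all genes. The glycolytic enzymes had a median of -0.01 and the other hypoxia targets one of 0.32. In 15 of the 36 genes the 3 XY values did not overlap the 3 XX values, where the share among all genes was 34.6%.

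**Figure D1:**
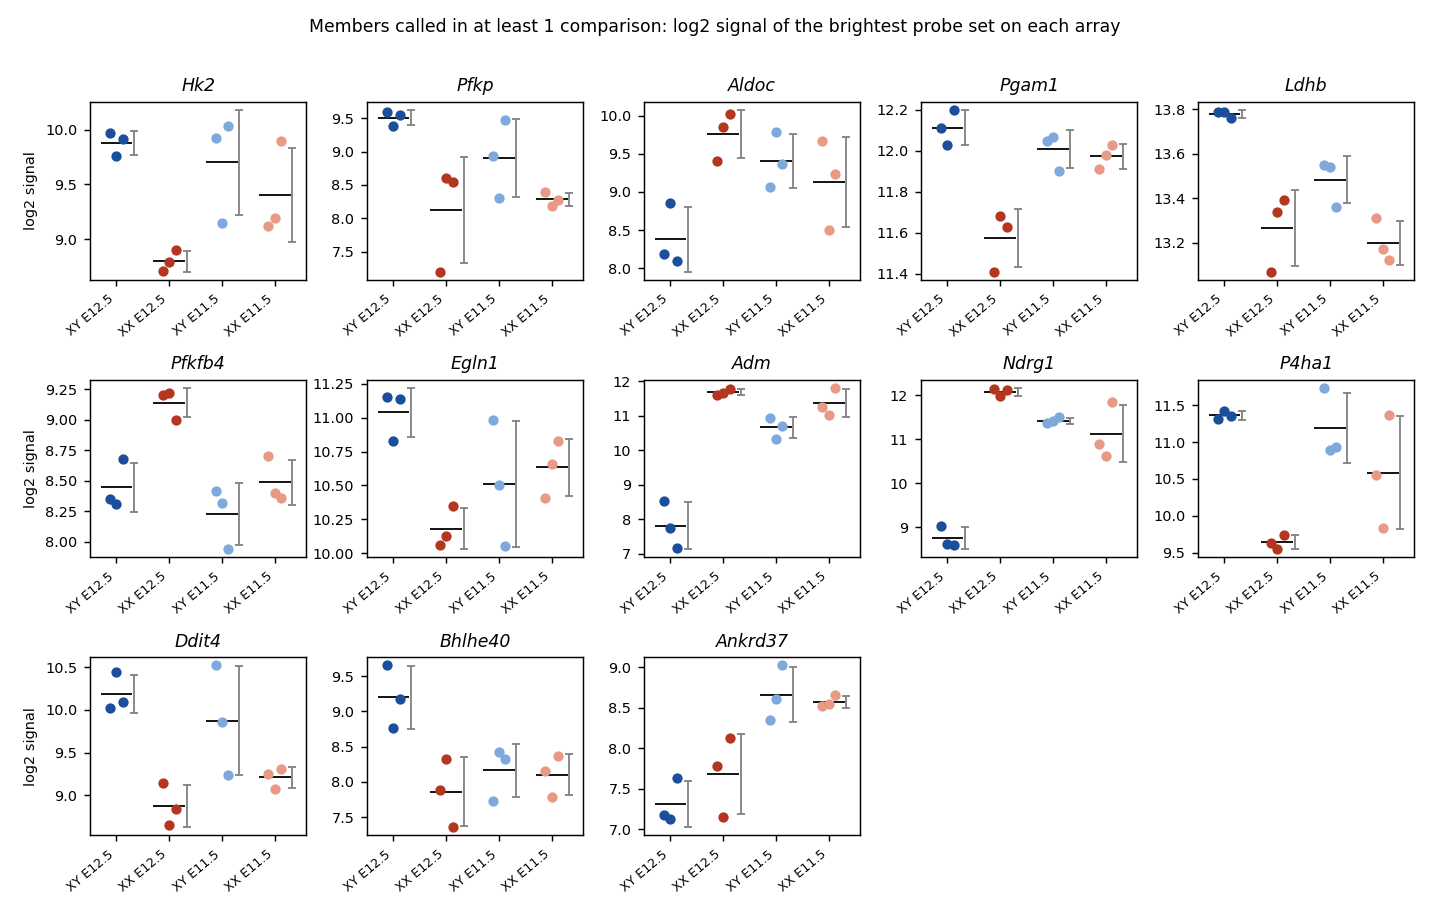
Log2 signal of the brightest probe set on each array for the 13 genes called in at least 1 comparison. Points are pools, the black line is the group mean and the grey bar spans 1 SD on either side of it (n = 3); vertical axes differ between panels. Adm and Ndrg1 are low in the 3 XY pools at E12.5 alone, whereas P4ha1, Hk2 and Pgam1 are low in the 3 XX pools at E12.5.

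Among the glycolytic enzymes, Hk2, a hexokinase that traps glucose as its phosphate, read 9.97, 9.76 and 9.91 in XY pools at E12.5 against 8.71, 8.79 and 8.90 in XX pools. It was 2.12-fold higher in XY cells (1.08 ± 0.25, limma adjusted p = 0.027). The XX pools of E12.5 lay below all other 9 arrays, since XY pools of E11.5 read 9.92, 9.15 and 10.03 and XX pools of E11.5 read 9.12, 9.19 and 9.90. The call was lost without any of the 6 arrays of E12.5, where the adjusted p ran from 0.054 to 0.087. Hk1, the hexokinase of most tissues, averaged 10.63 in XY and 10.81 in XX pools and was not called.

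Pgam1, a phosphoglycerate mutase of the lower part of the pathway, read 12.11, 12.03 and 12.20 in XY pools at E12.5 against 11.41, 11.68 and 11.63 in XX pools. The difference of 0.54 ± 0.11, or 1.46-fold, was small and precise (limma adjusted p = 0.012), and it missed the threshold only without pool 3 of XY cells at E12.5 (adjusted p = 0.055). The pools of E11.5 read 12.05, 12.07 and 11.90 in XY cells and 11.91, 11.98 and 12.03 in XX cells. Again the XX pools of E12.5 were the only low ones.

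Ldhb encodes the heart-type subunit of lactate dehydrogenase. It read 13.79, 13.79 and 13.76 in XY pools at E12.5, above all other 9 arrays, and 13.07, 13.34 and 13.39 in XX pools. The brightest probe set differed by 0.51 ± 0.11 (1.43-fold, limma adjusted p = 0.02), and all 4 probe sets of the gene were called, with differences of 0.51 to 0.84. The call at the brightest probe set was lost without pool 1 of XX cells or without any XY pool of E12.5 (adjusted p 0.056 to 0.064). The muscle-type subunit gene, Ldha, averaged 12.24 in XY and 12.10 in XX pools and was not called.

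Pfkp, the platelet form of phosphofructokinase, read 9.60, 9.38 and 9.55 in XY pools at E12.5 against 7.20, 8.61 and 8.55 in XX pools. The call (1.39 ± 0.37, limma adjusted p = 0.049) was the weakest of the 12. It was lost in 10 of the 12 fits that left out 1 array, all but those without pool 2 or pool 3 of XY cells at E11.5, with adjusted p 0.051 to 0.13. The low XX value came from pool 1, without which the difference was 0.93. The other probe sets of Pfkp differed by 0.11 and -0.02. The liver and muscle forms, Pfkl and Pfkm, averaged 8.42 and 9.03 in XY pools and 8.56 and 9.32 in XX pools, and neither was called.

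Aldoc, the aldolase typical of brain, was the only enzyme called lower in XY cells at E12.5. It read 8.18, 8.86 and 8.09 in XY pools and 9.41, 9.85 and 10.02 in XX pools, a 2.61-fold difference (-1.38 ± 0.32, limma adjusted p = 0.028). Its second probe set differed by -0.21 and was not called. That probe set averaged 4.76 over the 12 arrays, in the range of probe sets without a target, so it cannot decide on the difference. The call was lost without pools 2 or 3 of XX cells or pools 1 or 3 of XY cells at E12.5 (adjusted p 0.088 to 0.11). The other 9 enzymes (Hk1, Pfkl, Pfkm, Aldoa, Tpi1, Pgk1, Eno2, Pkm and Ldha) differed by -0.41 to 0.31 and none was called.

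Of the 7 transporters and regulators, Pfkfb4 alone was called. It encodes a bifunctional enzyme that sets the level of fructose 2,6-bisphosphate, the activator of phosphofructokinase. It read 8.35, 8.31 and 8.68 in XY pools at E12.5 and 9.20, 9.22 and 9.0 in XX pools, and was 1.62-fold lower in XY cells (-0.69 ± 0.16, limma adjusted p = 0.027). The call was lost without any XX pool of E12.5 or without pools 1 or 2 of XY cells (adjusted p 0.052 to 0.094). Its paralogue Pfkfb3 pointed the other way, with 8.77, 8.43 and 9.33 in XY pools and 7.22, 7.93 and 7.74 in XX pools. The groups did not overlap, and the difference of 1.22 ± 0.38 missed the threshold (adjusted p = 0.087). A dimmer probe set of Pfkfb3 averaged 5.71 in XY and 6.04 in XX pools, the opposite direction. The glucose transporters Slc2a1 and Slc2a3, the lactate transporters Slc16a1 and Slc16a3, and Pdk1, a kinase that keeps pyruvate out of the mitochondrial pathway, differed by -0.37 to 0.30.

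Of the HIF genes, Egln1, the main oxygen-sensing prolyl hydroxylase, read 11.15, 10.83 and 11.14 in XY pools at E12.5 and 10.06, 10.13 and 10.35 in XX pools. It was 1.81-fold higher in XY cells (0.86 ± 0.22, limma adjusted p = 0.04). The call was lost in 8 of the 12 fits that left out 1 array, those without any array of E12.5 or without pool 2 of either sex at E11.5 (adjusted p 0.052 to 0.13). Its second probe set differed by 0.28 and was not called. Hif1a, the alpha subunit destroyed in normal oxygen, averaged 11.59 ± 0.44 in XY and 10.84 ± 0.08 in XX pools (SD, n = 3). The pools did not overlap, and the difference of 0.75 ± 0.30 was not called (adjusted p = 0.19). The second probe set of Hif1a averaged 11.02 in XY and 10.41 in XX pools, the same direction. A dimmer one, which averaged 5.93 and 7.0, differed by -1.07 ± 0.51, also without a call, so the probe sets of Hif1a did not all share a direction.

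The hypoxia targets held the largest differences of the list, and in both directions. Adm encodes adrenomedullin, a secreted peptide that widens vessels. It read 8.52, 7.75 and 7.17 in XY pools at E12.5 against 11.61, 11.65 and 11.77 in XX pools. It was 14.5-fold lower in XY cells (-3.86 ± 0.32, 95% interval 8.92-fold to 23.7-fold, limma adjusted p = 7.6e-05). The groups did not overlap, and the second probe set differed by -3.54 and was called as well.

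Ndrg1, a cytoplasmic protein widely used as a hypoxia marker, read 9.04, 8.62 and 8.60 in XY pools at E12.5 and 12.15, 11.98 and 12.12 in XX pools. It was 10.1-fold lower in XY cells (-3.33 ± 0.27, 95% interval 6.68-fold to 15.2-fold, limma adjusted p = 6.5e-05). Of its 5 probe sets, 3 were called, with differences of -3.33, -2.76 and -1.17. The others differed by -1.94 and -0.40. Adm and Ndrg1 were called in this comparison in all 12 fits that left out 1 array, with log2 differences of -4.22 to -3.54 for Adm and -3.47 to -3.26 for Ndrg1.

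P4ha1, the catalytic subunit of the collagen prolyl hydroxylase, was higher in XY cells. It read 11.31, 11.43 and 11.36 in XY pools at E12.5 against 9.63, 9.55 and 9.74 in XX pools, a 3.32-fold difference (1.73 ± 0.34, limma adjusted p = 0.012). It was called in all 12 fits that left out 1 array, with adjusted p of up to 0.045. Its second probe set differed by 0.37 ± 0.78 and was not called, and with the mean of both probe sets the difference was 1.05 (adjusted p = 0.23). P4ha2, the gene of the other catalytic subunit form, averaged 9.24 in XY and 8.87 in XX pools without a call.

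Ddit4, an inhibitor of mTOR signalling also known as REDD1, and Bhlhe40, a transcriptional repressor, were the other higher targets. Ddit4 read 10.02, 10.44 and 10.09 in XY pools at E12.5 and 9.14, 8.65 and 8.84 in XX pools, a 2.47-fold difference (1.30 ± 0.28, limma adjusted p = 0.018). Bhlhe40 read 9.65, 8.77 and 9.17 in XY pools and 7.89, 8.33 and 7.36 in XX pools, a 2.53-fold difference (1.34 ± 0.30, limma adjusted p = 0.024). The groups did not overlap for either gene. Each call was lost without any of 4 arrays of E12.5: pools 2 or 3 of either sex for Ddit4 (adjusted p 0.05 to 0.069) and pools 1 or 3 of either sex for Bhlhe40 (adjusted p 0.065 to 0.092).

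The classical targets Vegfa, Bnip3, Car9, Higd1a and Ankrd37 were not called between the sexes at E12.5. Vegfa, the growth factor of blood vessels, averaged 9.95 in XY and 9.63 in XX pools. Car9, a carbonic anhydrase induced by hypoxia in many cells, averaged 6.54 in XY and 6.88 in XX pools, close to the median of all probe sets at 6.57. Higd1a, a mitochondrial protein, differed by -0.02 at its brightest probe set and by 1.41 and 1.49 at its dimmer ones, none of them called.

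**Figure D2:**
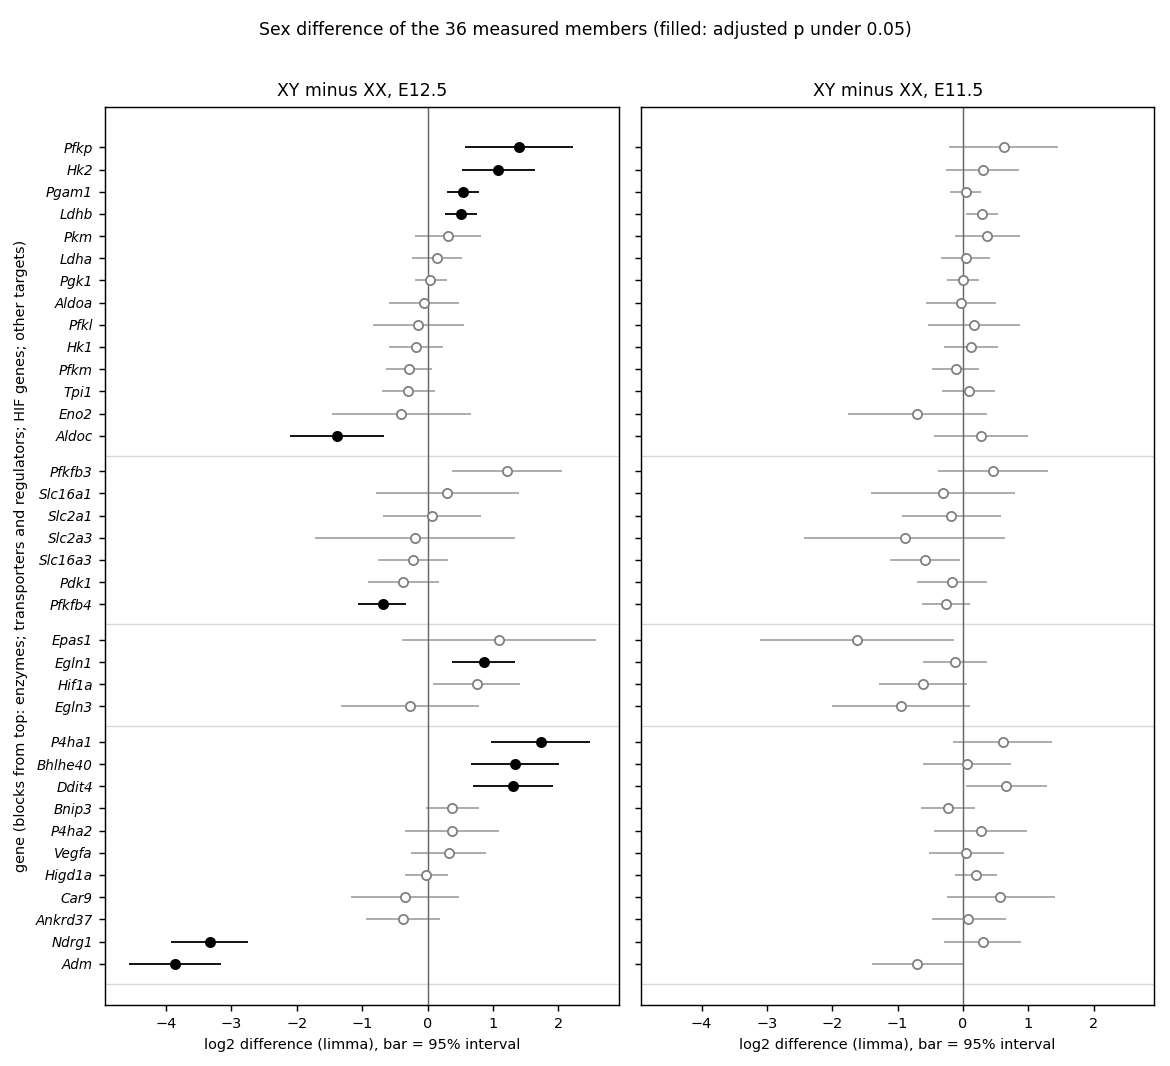
Log2 difference, XY minus XX, of the 36 genes at E12.5 (left) and E11.5 (right), with 95% intervals from limma; filled points are called. At E12.5 the 12 called genes lie on both sides of 0, from -3.86 for Adm to 1.73 for P4ha1, and at E11.5 none is filled.

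Marker lists of other features and cell types are set here beside these calls and the 11.1% of all genes called between the sexes at E12.5. Cell cycle markers were higher in XY cells for 5 of 18 measured. Their mean level was 10.09 to 10.33 in XY pools and 7.71, 9.04 and 8.83 in XX pools 1, 2 and 3. Immediate early and heat shock genes were higher for 4 of 15. Their mean level was 11.15 to 11.24 in XY pools and 11.02, 10.45 and 10.40 in XX pools 1, 2 and 3. Macrophage markers were higher for 1 of 15, with 7.31 to 7.52 in XY and 6.79 to 6.91 in XX pools. Interstitial mesenchyme markers were called for 2 of 9, 1 in each direction, with 7.52 to 8.21 in XY and 8.05 to 8.77 in XX pools, and erythroid markers for 1 of 7, with 6.21 to 6.38 in XY and 6.11 to 6.12 in XX pools. Endothelial and germ cell markers were called for 0 of 15 and 0 of 12. An unadjusted limma p under 0.05 was found for 0 and 2 of them, and for 4698 of all 17996 genes. The part of these marker differences in the results above was not tested. In pooled RNA, fewer cells of a type and less RNA per cell cannot be told apart.

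**Figure D3:**
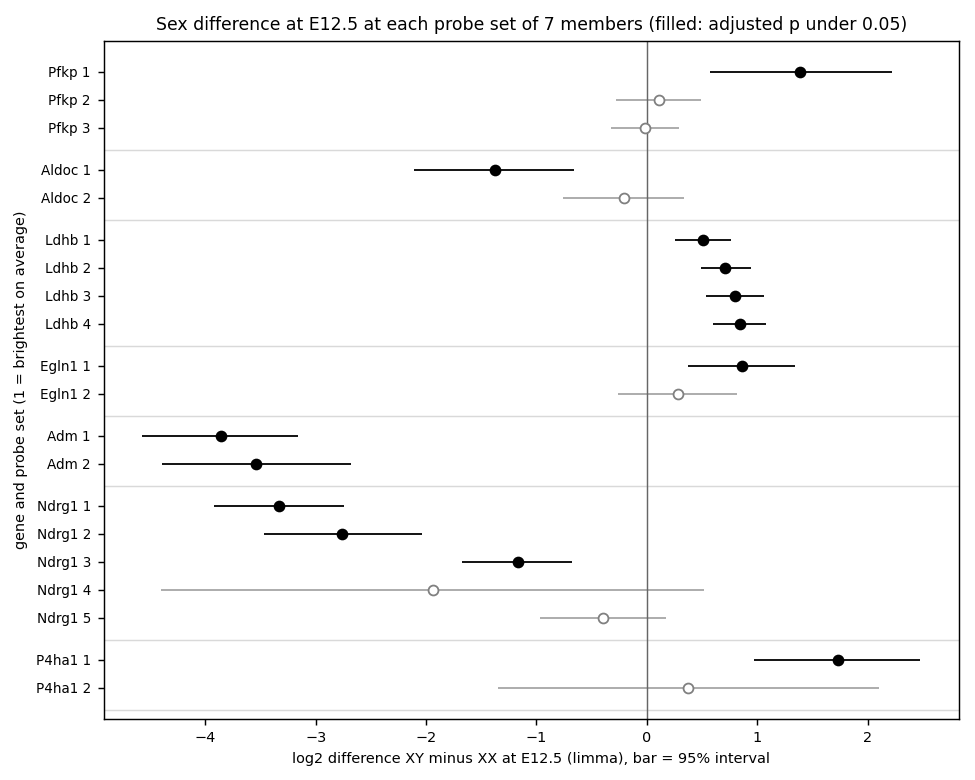
Log2 difference, XY minus XX at E12.5, at each probe set of the 7 called genes that have several, numbered from the brightest; bars are 95% intervals from limma and filled points are called. All 4 probe sets of Ldhb and both of Adm are called, and those of Pfkp, Aldoc, Egln1 and P4ha1 are called at the brightest alone. The second probe set of Aldoc averages 4.76, in the range of probe sets without a target.

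At E11.5, when XY and XX cells had only begun to differ, none of the 36 genes was called between the sexes by limma, and 4 had an unadjusted p under 0.05. Among all genes 0.0556% were called, so calls were rare over the whole array at this day. An unadjusted limma p under 0.05 was found for 1356 of all 17996 genes. The 4 genes of the list were Ddit4 (0.66), Ldhb (0.29), Slc16a3 (-0.58) and Epas1 (-1.62). Slc16a3 was dim, at 4.90, 5.33 and 5.18 in XY pools, in or near the range of probe sets without a target, and at 5.82, 5.79 and 5.55 in XX pools. The 3 XY and 3 XX values did not overlap in 5 of the 36 genes, against 10.4% of all genes. Adm read 10.94, 10.34 and 10.70 in XY pools and 11.24, 11.03 and 11.81 in XX pools at E11.5, groups that did not overlap but differed by only -0.70. Ndrg1 read 11.37, 11.41 and 11.50 in XY pools, within the XX range of 10.89, 10.63 and 11.86.

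The Epas1 value was smaller without 1 array. Epas1, the HIF alpha subunit prominent in endothelium, read 8.23, 8.87 and 8.60 in XY pools at E11.5 and 9.72, 11.54 and 9.30 in XX pools. The highest of these belonged to pool 2 of XX cells, the array that stood apart. Without it the sex difference of Epas1 was -0.95, with both other XX pools still above the 3 XY pools, that of Slc2a3 was -0.32 in place of -0.89, and that of Egln3 was -0.40 in place of -0.95. A dimmer second probe set of Epas1 averaged 6.08 in XY and 6.22 in XX pools at E11.5. Neither Epas1 nor Slc2a3 nor Egln3 was called with or without this array. The 4 HIF genes together averaged 1.19 above their 12-array means on it. On the same scale the endothelial markers averaged 1.84, the interstitial mesenchyme markers 1.79, the cell cycle markers 1.29 and the macrophage markers 0.85, and their part in these values was not tested.

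Between the days, the genes called in XY cells were Adm, Ndrg1 and Ankrd37, all lower at E12.5. They were 3 of 36, or 8.33%, near the 7.01% of all genes called in either direction, and 2.54% of all genes were called lower. Of the 36 genes 15 had differences above 0 and 21 below it. A further 10 genes had an unadjusted limma p under 0.05 without a call. That made 13 of the 36 genes, against 3744 of all 17996 genes. Among the 10 were Slc16a1 (1.53 ± 0.49, adjusted p = 0.11) and Bhlhe40 (1.03 ± 0.30, adjusted p = 0.078), whose pools of E12.5 all lay above those of E11.5. Slc16a1 was called without pool 3 of XX cells at E11.5 (adjusted p = 0.046), and Bhlhe40 with the filter on dim probe sets (adjusted p = 0.049). Adm, at 8.52, 7.75 and 7.17 in XY pools of E12.5 against 10.94, 10.34 and 10.70 in XY pools of E11.5, was 7.2-fold lower at the later day (-2.85 ± 0.32, limma adjusted p = 0.00078). Ndrg1, at 9.04, 8.62 and 8.60 against 11.37, 11.41 and 11.50, was 6.37-fold lower at E12.5 (-2.67 ± 0.27, limma adjusted p = 0.00041). Of its 5 probe sets 2 were called, and all 5 were lower, by -3.86 to -0.3. Adm and Ndrg1 were called in this comparison in all 12 fits that left out 1 array.

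Ankrd37, a small ankyrin-repeat protein whose gene is a HIF target, read 7.17, 7.12 and 7.63 in XY pools at E12.5 and 8.35, 8.60 and 9.02 in XY pools at E11.5. It was 2.55-fold lower at E12.5 (-1.35 ± 0.25, limma adjusted p = 0.013), and the call was lost without pool 3 of XY cells at E11.5 (-1.17, adjusted p = 0.054). In XX cells it read 7.78, 7.15 and 8.12 at E12.5 and 8.52, 8.54 and 8.65 at E11.5. These groups did not overlap either, with a difference of -0.89 ± 0.25 that was not called (adjusted p = 0.083). Unlike Adm and Ndrg1, Ankrd37 thus lay lower at E12.5 in both sexes.

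In XX cells none of the 36 genes was called between the days by limma, where 3.76% of all genes were called. An unadjusted limma p under 0.05 was found for 10 of the 36 and for 4511 of all 17996 genes. Vegfa came nearest. It read 9.40, 9.95 and 9.54 in XX pools at E12.5 and 11.02, 10.28 and 10.88 in XX pools at E11.5 (-1.10 ± 0.26, limma adjusted p = 0.05, not under the threshold). Without pool 2 of XX cells at E11.5 it was called (-1.32, adjusted p = 0.046). In XY cells Vegfa read 10.28, 9.49 and 10.10 at E12.5 and 10.99, 10.55 and 10.81 at E11.5 (-0.83 ± 0.26, adjusted p = 0.093). Pfkfb3 differed by -1.55 ± 0.38 (adjusted p = 0.056) between the days in XX cells, and Ndrg1 by 0.96 ± 0.27 (adjusted p = 0.078). A dimmer probe set of Pfkfb3, which averaged 6.04 at E12.5 and 5.67 at E11.5, pointed the other way (0.37, limma adjusted p = 0.16). The other probe sets of Ndrg1 differed by 0.42, 0.40, -1.23 and 0.20, none of them called. The few genes near the threshold changed call under other settings.

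**Figure D4:**
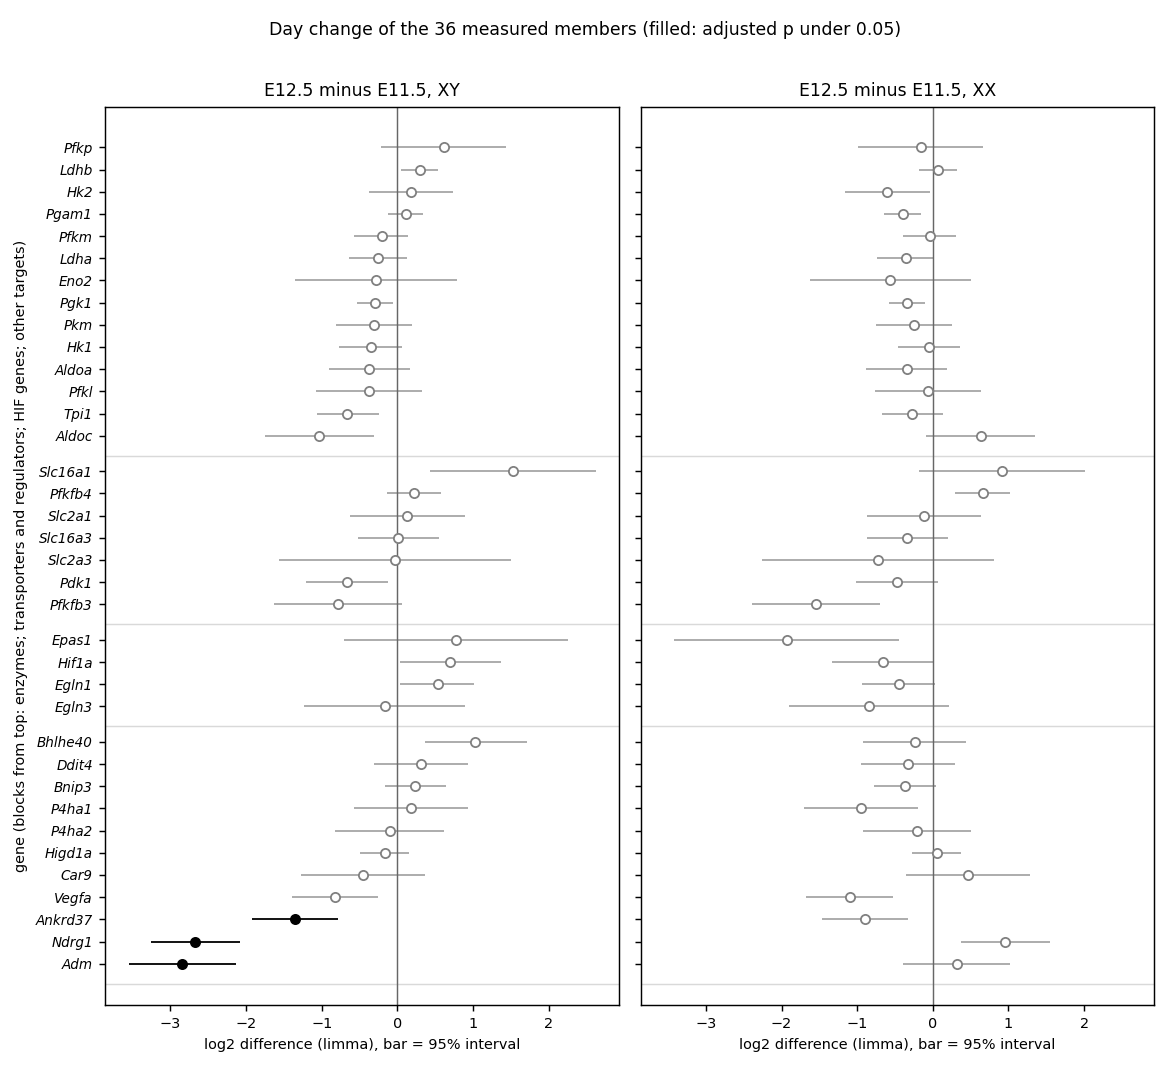
Log2 difference, E12.5 minus E11.5, of the 36 genes in XY cells (left) and XX cells (right), with 95% intervals from limma; filled points are called. Adm, Ndrg1 and Ankrd37 are filled in XY cells, and no gene is filled in XX cells, where Adm and Ndrg1 lie above 0.

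No glycolytic enzyme was called between the days in either sex at its brightest probe set. Their median difference between the days was -0.29 in XY and -0.26 in XX cells, whereas the median of all genes was 0.06 in XY and 0.12 in XX cells. Of the 14 enzymes 9 had a lower mean at E12.5 in both sexes: Hk1, Pfkl, Pfkm, Aldoa, Tpi1, Pgk1, Eno2, Pkm and Ldha. Over the whole list this held for 16 of 36 genes, or 44.4%, against 15.9% of all genes, and 3 genes were higher in both sexes against 41.3% of all genes. These counts use no test, and the sexes have separate arrays at each day. They also ignore size. In XX cells the 9 enzymes differed by -0.57 to -0.04, with Hk1 (-0.05 ± 0.18), Pfkl (-0.07 ± 0.31) and Pfkm (-0.04 ± 0.16) close to no difference. Eno2 read 5.84, 7.29 and 4.97 in XY pools at E12.5, the last in the range of probe sets without a target. Marker lists also had median differences between the days. In XY cells the median difference was 1.18 for the cell cycle markers (1 of 18 called) and 1.07 for the macrophage markers (2 of 15 called). In XX cells it was -1.03 for the cell cycle markers (0 of 18 called, 6 at an unadjusted limma p under 0.05) and -0.48 for the endothelial markers (0 of 15 called, 0 at an unadjusted p under 0.05), and their part in the differences of the enzymes was not tested. The 3 pools of each day did not overlap in 13 of the 36 genes in XY cells (26.5% of all genes) and in 15 of the 36 in XX cells (29.1% of all genes).

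Pgk1 and Tpi1 had called probe sets other than the brightest. Pgk1, a kinase that forms ATP in glycolysis, read 13.20, 13.08 and 13.15 in XY pools and 13.31, 13.00 and 13.00 in XX pools at E12.5. At E11.5 it read 13.47, 13.39 and 13.47 in XY pools and 13.53, 13.39 and 13.41 in XX pools. The days did not overlap in either sex, and neither difference was called at this probe set. A second probe set of Pgk1 was called in XX cells (-0.87, limma adjusted p = 0.048). Tpi1, the triosephosphate isomerase, differed by -0.66 ± 0.18 between the days in XY cells (adjusted p = 0.064), and 2 dimmer probe sets were called there with -0.68 (adjusted p = 0.025) and -0.66 (adjusted p = 0.04). These probe sets were singled out after their values were seen.

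**Figure D5:**
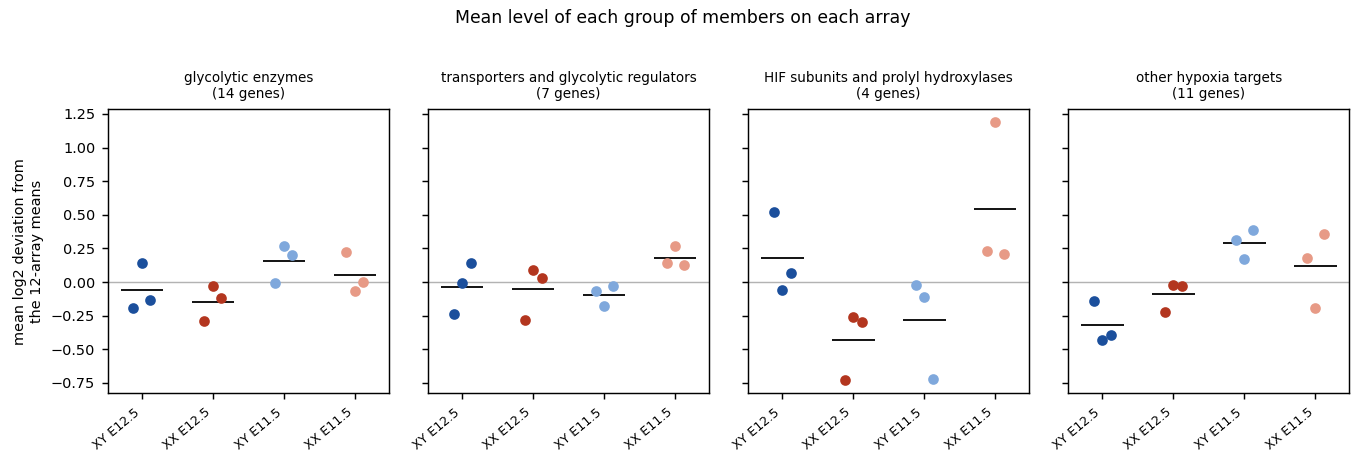
Mean deviation of each group of genes from its 12-array means on each array, in log2 units; points are pools and the line is their mean (n = 3). The other hypoxia targets, which include Adm and Ndrg1, lie at -0.43 to -0.14 in XY pools of E12.5 and overlap both XX groups, and the 4 HIF genes are highest on 1 XX array of E11.5, at 1.19.

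The sex difference itself changed between the days for 2 of the 36 genes, both toward lower values in XY cells. Among all genes 2.83% were called in this test of the difference between differences in either direction, and 1.54% in that direction. For Adm the sex difference was 3.16 log2 units more negative at E12.5 than at E11.5 (-3.16 ± 0.45, limma adjusted p = 0.0067). For Ndrg1 it was -3.63 ± 0.38 (limma adjusted p = 0.0016). Of the 5 probe sets of Ndrg1 2 were called, and all 5 changes were negative, at -3.63 to -0.5. Adm and Ndrg1 were called in this comparison in all 12 fits that left out 1 array. A further 8 genes had an unadjusted limma p under 0.05, which makes 10 of 36, against 3453 of all 17996 genes. Among the 8 were Aldoc (-1.66 ± 0.46, adjusted p = 0.11), Hif1a (1.36 ± 0.43, adjusted p = 0.16), Egln1 (0.98 ± 0.31, adjusted p = 0.16) and Epas1 (2.71 ± 0.94, adjusted p = 0.21). The Epas1 change was 2.04 without pool 2 of XX cells at E11.5, the array that stood apart. It also drew on 1 low XX pool of E12.5, since Epas1 read 6.78, 9.26 and 8.73 in pools 1, 2 and 3. A dimmer second probe set of Epas1 hardly moved, averaging 6.11 and 6.18 in XY and XX pools at E12.5 and 6.08 and 6.22 at E11.5. The second probe set of Egln1 pointed the other way, averaging 8.69 and 8.41 in XY and XX pools at E12.5 and 8.46 and 7.89 at E11.5. So did the third of Hif1a (5.93 and 7.0, then 6.69 and 6.84), while its second did not (11.02 and 10.41, then 10.45 and 10.56). The targets that were higher in XY cells at E12.5, P4ha1, Ddit4 and Bhlhe40, were not called for the change of the sex difference, with 1.12, 0.64 and 1.27.

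The promoters of these genes were read for the HIF core motif, ACGTG or GCGTG on either strand, in the 250 bases before the start given by RefSeq (GRCm38.p6). Such a window was given for 32 of the 36 genes, and 30 of the 32 (93.8%) held the motif in at least 1 window, all but Eno2 and Tpi1. The share was 41.5% of 27025 genes, 61.4% of genes measured here above the median of all probe sets, and 68.9% of genes whose windows hold at least as many CpG pairs as the median window of the list, 14. Genes with several windows have more chances to hold it. Counted by window, the share was 36 of 44 (81.8%) for the list, 38.6% for all windows, 55.3% for those of measured genes above the median and 67.3% for those with at least 14 CpG pairs. The median G and C content was 62.2% for the list, 60.0% for measured genes above the median and 52.4% for all. The motif was present in all 11 called genes that have a window, those lower in XY cells at E12.5 and those higher alike. ACGTG also lies inside the E-box CACGTG, and a match is a description of letters, not a measured site. The windows below are those of Adm and Ankrd37, lower at E12.5 in XY cells, and of P4ha1, Pgam1 and Ldhb, higher in XY than in XX cells at E12.5, to show the motif in genes of either direction. The motif is in capitals in the orientation of the gene, so CACGT and CACGC mark the other strand.
Adm, chr7:110627407-110627656, plus strand: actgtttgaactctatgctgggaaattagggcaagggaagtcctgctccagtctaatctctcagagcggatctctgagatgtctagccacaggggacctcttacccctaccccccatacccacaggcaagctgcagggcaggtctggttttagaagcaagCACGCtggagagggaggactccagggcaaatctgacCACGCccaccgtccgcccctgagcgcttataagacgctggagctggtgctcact
Ankrd37, chr8:45999851-46000100, minus strand: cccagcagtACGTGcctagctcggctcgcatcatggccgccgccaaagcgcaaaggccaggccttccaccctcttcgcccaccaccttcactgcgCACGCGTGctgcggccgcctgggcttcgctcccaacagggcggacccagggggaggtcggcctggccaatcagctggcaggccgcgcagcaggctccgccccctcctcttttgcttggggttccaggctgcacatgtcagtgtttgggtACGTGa
P4ha1, chr10:59323046-59323295, plus strand: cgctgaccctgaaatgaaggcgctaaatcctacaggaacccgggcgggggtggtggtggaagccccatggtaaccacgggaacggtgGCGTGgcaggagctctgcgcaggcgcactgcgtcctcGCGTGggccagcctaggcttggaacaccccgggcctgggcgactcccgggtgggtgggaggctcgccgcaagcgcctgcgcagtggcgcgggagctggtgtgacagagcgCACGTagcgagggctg
Pgam1, chr19:41911621-41911870, plus strand: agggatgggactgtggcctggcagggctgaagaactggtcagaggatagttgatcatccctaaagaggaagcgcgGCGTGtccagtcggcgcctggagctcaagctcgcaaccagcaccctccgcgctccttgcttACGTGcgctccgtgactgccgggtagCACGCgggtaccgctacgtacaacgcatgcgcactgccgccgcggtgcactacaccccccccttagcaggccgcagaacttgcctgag
Ldhb, chr6:142507958-142508207, minus strand: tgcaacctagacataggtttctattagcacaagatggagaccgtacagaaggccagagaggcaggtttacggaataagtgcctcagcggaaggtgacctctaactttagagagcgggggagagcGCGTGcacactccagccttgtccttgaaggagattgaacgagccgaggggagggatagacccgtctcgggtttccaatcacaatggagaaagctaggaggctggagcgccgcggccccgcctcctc
The motif starts 90 and 54 bases before the start in Adm, and 241, 155, 152 and 6 bases before it in Ankrd37. In P4ha1 it lies 163, 126 and 16 bases before the start, in Pgam1 175, 114 and 88, and in Ldhb 126. Genes called in opposite directions both carried it.

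Neighbouring pathway genes were taken from lists beside the 40. Their counts between the sexes at E12.5 stand beside 11.1% of all genes called: the shares were 16.7% for further isozymes, 42.9% for gluconeogenesis, 18.2% for pyruvate entry, 36.4% for glycogen and 11.1% for other transporters. No enrichment was tested, the lists hold 7 to 12 genes, and they were chosen with earlier results of these data known. Of 12 measured further isozymes and regulators 2 were higher in XY cells, Pfkfb2 (3.49-fold) and Pgam2 (2.2-fold), the heart-type bifunctional enzyme and the muscle-type mutase. Of 7 genes of gluconeogenesis, Fbp1, fructose bisphosphatase (3.51-fold), and Pcx, pyruvate carboxylase (2.69-fold), were higher and Pck2 was 2.05-fold lower. Their limma adjusted p-values ran from 0.0035 for Fbp1 to 0.037 for Pck2. None of the 7 genes of the pentose phosphate pathway was called. An unadjusted limma p under 0.05 was found for 2 of them, and for 4698 of all 17996 genes.

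At the entry of pyruvate into mitochondria 2 of 11 genes were called, a kinase and a phosphatase of pyruvate dehydrogenase. Pdp1, the activating phosphatase, was 3.02-fold higher in XY cells at E12.5 (limma adjusted p = 0.013). Pdk4, the inhibiting kinase, read 3.96 to 5.59 in XY pools and 7.20 to 8.27 in XX pools, without overlap (limma adjusted p = 0.023). The XY values reach the range of probe sets without a target, so no fold is given. In glycogen metabolism, the phosphorylases Pygb (2.25-fold) and Pygl (2.36-fold) and the primer protein Gyg (1.49-fold) were lower, and Ppp1r3c, which targets a phosphatase to glycogen, was 7.04-fold higher, 4 of 11 genes in all, with limma adjusted p of 0.0061 for Pygb to 0.044 for Gyg. Of 9 other transporters Slc16a7, a monocarboxylate carrier, was 4.79-fold higher (adjusted p = 0.019).

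Of 23 further hypoxia targets 4 were higher and 2 lower in XY cells at E12.5, 26.1% in all, where 5.59% of all genes were called higher and 5.52% lower. This list was also chosen with earlier results known, and no enrichment was tested. Stc2, a secreted stanniocalcin, read 11.45 to 12.18 in XY pools and 7.57 to 8.99 in XX pools and was 11.7-fold higher (limma adjusted p = 0.0011). Ero1a, an oxidase of protein folding, was 2.41-fold higher, Anln, an actin-binding protein of cell division, 5.39-fold, and Ak4, an adenylate kinase, 1.66-fold. Angptl4, a secreted inhibitor of lipoprotein lipase, read 8.54 to 9.28 in XY pools and 11.42 to 11.72 in XX pools and was 6.4-fold lower (limma adjusted p = 0.00011). Kdm3a, a histone demethylase, was 2.25-fold lower. The limma adjusted p-values of Ero1a, Anln, Ak4 and Kdm3a ran from 0.0012 for Ero1a to 0.042 for Anln. Of 10 genes of HIF control, Hif3a, which encodes a further alpha subunit, was 2.42-fold lower (limma adjusted p = 0.0026), a share of 10.0% that lies near that of all genes.

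Between the days, Angptl4 followed the pattern of Adm and Ndrg1 in XY cells, where it was 2.88-fold lower at E12.5 (limma adjusted p = 0.0049). In XX cells it was 2.12-fold higher at E12.5 (adjusted p = 0.041), and its sex difference changed by -2.61 ± 0.33 (adjusted p = 0.0039). Kdm3a was also lower at E12.5 in XY cells (2.05-fold), and Ero1a was higher (1.79-fold), and the sex difference of Ero1a changed by 1.17 (limma adjusted p = 0.036). Also higher at E12.5 in XY cells were Fbp1 (2.83-fold), Pgam2 (2.82-fold), Pcx (2.21-fold), Slc16a7 (4.69-fold) and Minpp1, a phosphatase of inositol and glycerate phosphates (2.03-fold). Also lower were Pdha1, a subunit of pyruvate dehydrogenase (2.4-fold), Pck2 (2.4-fold), Gyg (1.57-fold) and Ugp2, which makes the sugar donor for glycogen (1.59-fold). Over these genes and Kdm3a and Ero1a, the limma adjusted p for the day in XY cells ran from 0.0041 for Ugp2 to 0.034 for Minpp1. In XX cells Stc2 was 3.91-fold lower, Pdp1 3.27-fold lower and Ep300, a coactivator of HIF, 5.88-fold lower at E12.5, with limma adjusted p of 0.049, 0.024 and 0.014. At E11.5 no gene of these 8 lists was called between the sexes.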

How the data were processed

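Per the labels' protocols, RNA came from a PicoPure kit and went through a TargetAmp amplification of 2 rounds before biotin labelling, and such amplification can change probe sets unequally. The authors deposited 1 table of log2 values, 1 for each probe set and array; how they were corrected, summarised and normalized is not given in the sources used here. No log base is stated: the largest value, 14.45, allows a base of at most 2.15 on a 16-bit scanner, so log2 was taken.

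Of 45037 probe sets, 798 had no value on every array and 1 on some; the other 44238 were tested. Array medians were 6.494 to 6.592. Symbols came from the platform annotation and were updated by Entrez identifier with RefSeq (34126 matched). Of the tested probe sets 34328 named 1 gene, 850 several and 9060 none, and only the first kind was used. Each gene was represented by its probe set with the highest mean over the 12 arrays.

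The 5 comparisons were tested in limma 3.58.1 (R 4.3.3) with lmFit and eBayes, two-sided, on the means of the 4 groups, with 8 residual and 2.11 prior degrees of freedom. Folds are 2 raised to the log2 difference. The fit was tested on simulated data. The root mean square SD between pools was 0.357 in XY and 0.331 in XX cells at E12.5, and 0.422 in XY and 0.45 in XX cells at E11.5. Alternatives were median centring, array quality weights, a filter on dim probe sets, the pool number as a block, a variance prior following the mean, quantile normalization, a fit without the other groups, the mean or any of a gene's probe sets, and leaving out each array. Figures were drawn with matplotlib 3.10.9.

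The members and lists were chosen with earlier results of these data known. Every member could be named. Values on every array are given for called members, and for others near a threshold or at odds with another probe set, which were chosen after their values were seen. Called pathway genes are named, up to 3 in each direction of a list; Anln, the fourth higher one of its list, was added after its value was seen.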

Additional observations from a re-analysis of the deposited data

Results flagged for a closer look

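The sex difference of Adm and Ndrg1 was not the same at the 2 days, by a test of the difference itself (limma, adjusted over all 44238 probe sets). For Adm the difference, XY minus XX, was -3.86 at E12.5 and -0.70 at E11.5, a change of -3.16. For Ndrg1 it was -3.33 at E12.5 and 0.30 at E11.5, a change of -3.63. These are values of the brightest probe sets. The change was called at both probe sets of Adm and at 2 of the 5 of Ndrg1, which ranged from -3.63 to -0.5. In each gene all 3 XY pools of E12.5 lay below the other 9 arrays. With any 1 array left out the change stayed between -3.52 and -2.84 for Adm (adjusted p of up to 0.026) and between -4.0 and -3.38 for Ndrg1 (adjusted p of up to 0.0073).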

How the results depend on the processing

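Precision is limited by 3 pools a group, and no detection calls were used, so dim signals could not be told from background. Of 17 calls, 123 of 134 values under other settings and 157 of 204 with 1 array left out kept the call, and no sign turned. The genes called between the sexes at E12.5, 12 as given, numbered 4 to 12 with 1 array left out: 4, 6 and 5 without pool 3, 2 or 1 of XY cells of E12.5, and 5, 6 and 6 without pool 3, 2 or 1 of XX cells. The count was 10 to 13 under the other settings except the replicate block, which gave 8 and ended the calls of Aldoc (adjusted p = 0.058), Bhlhe40 (0.056), Egln1 (0.077) and Pfkp (0.067). Pfkfb4 missed the threshold with quantile normalization (0.052) or a variance prior following the mean (0.055), and Bhlhe40 (0.056) and Pfkp (0.087) in a fit to the compared arrays; Pfkp also did with that prior (0.051), and Pfkp (0.15) and P4ha1 (0.23) with the mean of their probe sets. The main fit did not pair pools by number. Same-numbered pools correlated at -0.398 to 0.235, over 0.1 in 4 of 18 pairs. These correlations cannot decide whether the pools were paired, since the deviations of 3 pools from their group mean depend on each other. At E11.5 no gene was called under any setting, the block and left-out arrays included (0 to 0). Between the days in XY cells, 3 genes were called as given, 5 with array quality weights, 5 with the mean of probe sets, 3 with the block and 2 to 4 with 1 array left out. In XX cells, 0 became 2 with array quality weights, 2 with the dim filter, 3 with the mean of probe sets, 1 with median centring, 2 with the block, 1 with any probe set and 0 to 1 with 1 array left out, among them Vegfa and Pfkfb3. For the change of the sex difference, 2 were called, also with the block, and 2 to 4 with 1 array left out. The 4 included Hif1a and Egln1, without pool 1 of XY cells at E11.5. A dimmer probe set of Hif1a and that of Egln1 pointed the other way, as given above. With 1 array left out, the enzymes' median ran from -0.08 to 0.08 and that of the other hypoxia targets from 0.08 to 0.37 for sex at E12.5, from -0.01 to 0.19 and 0.04 to 0.28 for sex at E11.5, from -0.37 to -0.15 and -0.34 to -0.12 for day in XY cells, from -0.36 to -0.15 and -0.39 to -0.21 for day in XX cells, and from -0.23 to 0.13 and -0.19 to 0.38 for the change of the sex difference. The targets' median for day in XY cells was -0.45 with the mean of probe sets, against -0.17. Causes were not tested.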
